A study of Oryza sativa with 6 samples.

Results

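This account concerns 7 probes, of 21495 for rice on the array, that were described as phosphate transporters, most of them as high-affinity ones. The 7 were chosen with earlier results of these data known. They are a list of accessions drawn up from the descriptions, and not every probe with such a description is on it (AK069054 and AK106694, also described as Pht1-2, and AK107027, described as HAPT, are given further on): AK101170 and AK101380, both described as Pht1-2, AK063990, described as OsPT1, AK109109, described by its likeness to a phosphate transporter of Catharanthus roseus, AK062362, described as high affinity phosphate transporter 11, and AK108907 and AK070341, both described as high affinity phosphate transporter 2. Root RNA was compared between 6-4, a near-isogenic rice line that carries inserts from the indica cultivar Kasalath, and Nipponbare, a japonica cultivar. Plants of both lines were grown in pots of 12 L filled with Andosol, a volcanic ash soil, either without phosphorus (P-def) or with much phosphorus (Control), so that the groups were 6-4 in P-def, Nipponbare in P-def, 6-4 in Control and Nipponbare in Control, with 3 biological replicates each. The labels give neither the plants' age nor the position or size of the Kasalath inserts, and 6-4 is 1 line. Each of the 6 arrays held 6-4 and Nipponbare of the same condition in different dyes, so that lines were compared within arrays and conditions between them.

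Transporters of the PHT1 family are proton-coupled symporters of the plasma membrane that take up inorganic phosphate, in roots mainly from the soil solution. Many members are transcribed more strongly when a plant is short of phosphate, and in rice OsPT11 is known for its activity in roots colonised by mycorrhizal fungi. The name OsPT1 is listed for 4 genes of the reference table and Pht1-2 for 1, which is also named OsPht1;4, and none of the 7 probe accessions is in that table, so the probes are called by accession and by the description of the array design. Members of this family resemble each other in sequence, and how far a probe also bound the RNA of a relative was not tested.

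All 7 probes gave signal well above background in both dyes on all 6 arrays, and no spot of theirs was flagged as an outlier. In Cy3 the dimmest were close to the negative control spots on replicate 2 of both conditions: AK070341 was at 6.63 times local background on P-def replicate 2, where negative controls were at 4.80 times, and on Control replicate 2 AK109109 was at 6.83 and AK070341 at 7.77 times, where negative controls were at 5.06 times. What this signal takes from the differences of these 2 probes was not tested. In the account that follows a level is a normalized log2 intensity, on which a difference of 1 is a doubling, and levels of different probes are not set against each other. Adjusted p-values are from limma, by the method of Benjamini and Hochberg over all probes tested, and a probe is said to have risen or fallen where this value was under 0.05. In a root extract fewer cells of a type and less RNA per cell cannot be told apart.

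P deficiency raised the level of 4 of the 7 probes in the mean of both lines, by 2.14-fold to 3.60-fold, in the fit with no term for the replicate number. These were both Pht1-2 probes, the OsPT1 probe and the Catharanthus-named probe. The probe for transporter 11 had the largest difference, 4.31-fold, with wide scatter between replicates, and the 2 probes for transporter 2 differed little between conditions. Of all probes tested, 1.06% rose in this comparison. The median log2 difference was 1.24 over the 7 probes, against -0.01 over all 20531 tested. Since the 7 were chosen with earlier results known, these shares and medians only describe them and are no test of the family.

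AK101170, a Pht1-2 probe, had levels of 14.94, 15.02 and 14.89 in 6-4 and 15.07, 15.20 and 14.92 in Nipponbare in P-def, against 13.79, 13.33 and 13.00 in 6-4 and 14.39, 14.11 and 13.97 in Nipponbare in Control. Every P-def level lay above every Control level, in the pooled set as within each line. The mean difference was 1.24 on the log2 scale, or 2.37-fold (SE 0.17, limma adjusted p = 0.0112). Its Cy5 spot was saturated on P-def replicate 2, where that channel held Nipponbare, and on P-def replicate 3, where it held 6-4, so those 2 levels are lower bounds.

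AK101380, the second Pht1-2 probe, was at 13.50, 13.66 and 13.85 in 6-4 and 13.82, 14.08 and 13.84 in Nipponbare in P-def, against 12.54, 11.98 and 11.57 in 6-4 and 12.95, 12.52 and 12.96 in Nipponbare in Control. Here too the conditions did not overlap, and no spot was saturated. The rise was 1.37, or 2.58-fold (SE 0.17, limma adjusted p = 0.00643).

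AK063990, the OsPT1 probe, had 13.62, 12.86 and 13.37 in 6-4 and 13.80, 13.42 and 13.44 in Nipponbare in P-def, against 12.39, 12.11 and 11.27 in 6-4 and 12.95, 12.59 and 12.60 in Nipponbare in Control. The conditions were apart within each line, whereas the lowest 6-4 level in P-def lay just below the highest Nipponbare level in Control. Its rise of 1.10, or 2.14-fold (SE 0.22), passed narrowly, with a limma adjusted p of 0.0482.

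AK109109, the probe named after Catharanthus, was at 9.96, 10.06 and 9.23 in 6-4 and 10.34, 10.22 and 9.56 in Nipponbare in P-def, against 8.26, 8.06 and 7.37 in 6-4 and 8.59, 8.20 and 7.80 in Nipponbare in Control. Replicate 3 was the lowest of both lines in both conditions, and still every P-def level exceeded every Control level. The rise was 1.85, or 3.60-fold (SE 0.26, limma adjusted p = 0.0121). Its Control levels were dim in Cy3, and the size of the rise moved with the handling of background. It was 1.65 without background correction, 2.03 with a normexp offset of 16 and 2.23 with processed signals.

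AK062362, described as transporter 11, had levels of 12.91, 13.38 and 14.94 in 6-4 and 13.93, 13.54 and 15.00 in Nipponbare in P-def, against 11.04, 10.63 and 11.77 in 6-4 and 11.82, 12.03 and 13.76 in Nipponbare in Control. Replicate 3 was the highest of each line in each condition, and its Nipponbare level in Control exceeded Nipponbare replicate 2 in P-def. The difference between conditions was 2.11, or 4.31-fold (SE 0.48, limma adjusted p = 0.0872). A fit with a replicate block, which takes out what same-numbered arrays share, gave the same difference with an SE of 0.11 and an adjusted p of 9.53e-05. The Cy5 spot of 6-4 on P-def replicate 3 was saturated, so that level is a lower bound. The 2 arrays of replicate 3 were also those whose headers name another version of the Agilent Feature Extraction software (8.1, against 7.1 on the other 4 arrays). The part of this version in the higher levels was not tested. Within the 4 arrays of version 7.1 the difference was 2.05 with a limma adjusted p of 0.00333.

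AK108907, described as transporter 2, had 12.80, 12.09 and 12.39 in 6-4 and 13.30, 13.43 and 12.51 in Nipponbare in P-def, against 12.50, 12.76 and 11.92 in 6-4 and 13.32, 13.04 and 13.05 in Nipponbare in Control. The conditions overlapped in both lines. The mean difference was -0.01, with a 95% confidence interval of -0.45 to 0.43 (limma adjusted p = 0.999).

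AK070341, which shares that description, was at 8.98, 8.64 and 8.81 in 6-4 and 9.06, 8.89 and 8.81 in Nipponbare in P-def, against 8.94, 9.17 and 8.99 in 6-4 and 8.92, 8.89 and 8.92 in Nipponbare in Control. All 12 levels lay within a narrow band. Its difference of -0.11 had an interval of -0.41 to 0.20 (limma adjusted p = 0.901). The intervals of both probes for transporter 2 leave out a doubling of the measured signal in either direction. For AK070341, close to negative controls in Cy3 on replicate 2 of both conditions, whether this holds for the RNA was not tested.

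**Figure D1:**
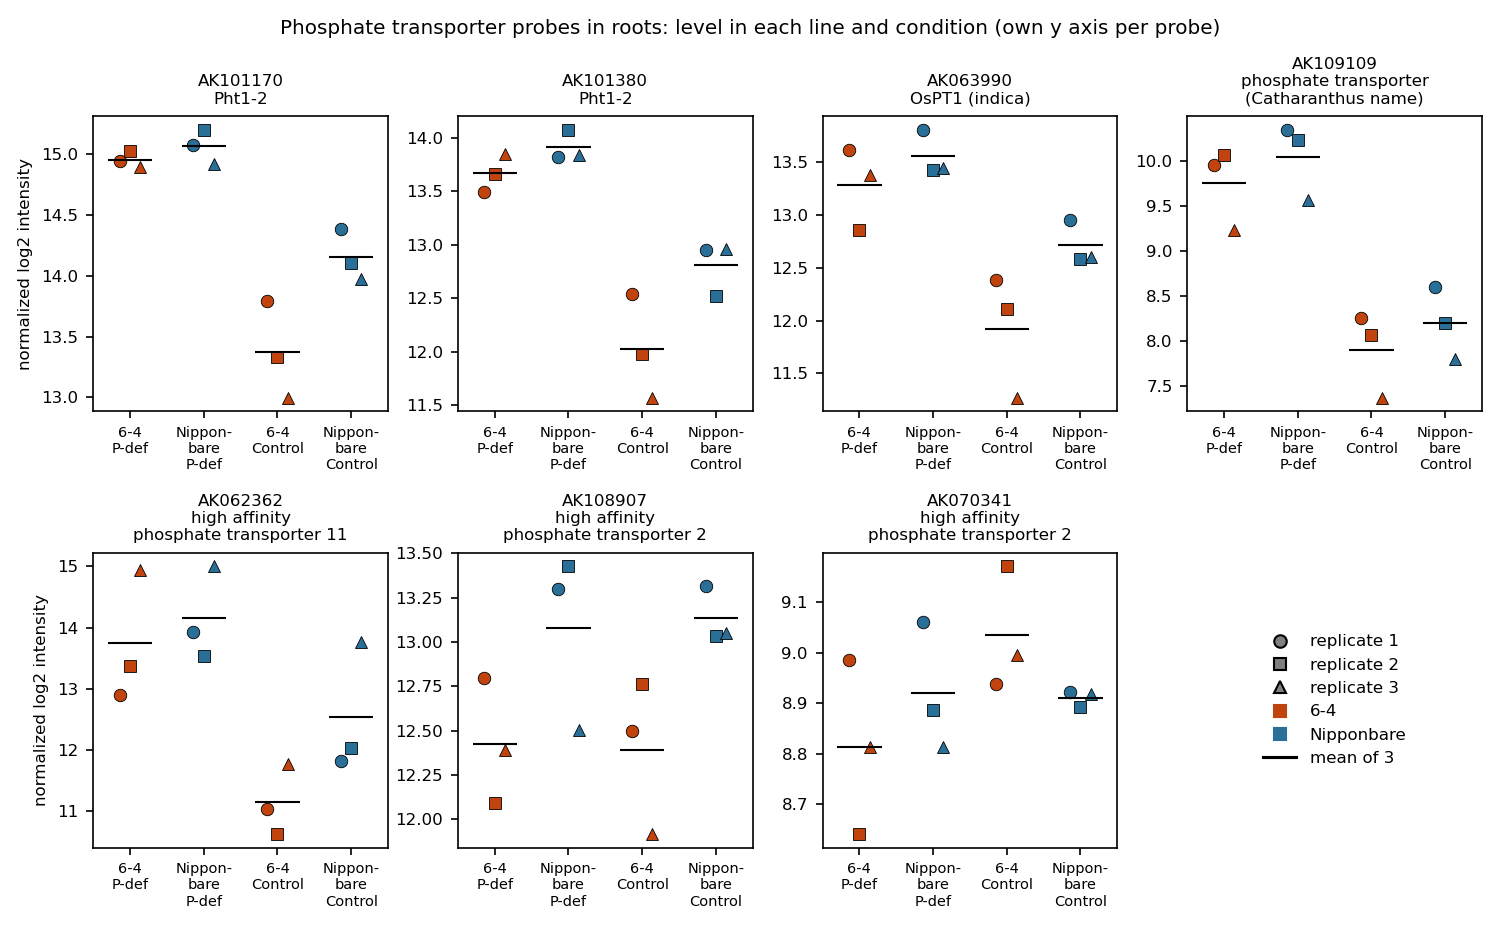
Normalized log2 intensity (y axis, its own range for each probe) of the 7 transporter probes in 6-4 and Nipponbare roots under P-def and Control; each symbol is 1 channel of 1 array, its shape the replicate, and the line the mean of 3. For the 5 probes other than those of transporter 2, every 6-4 level in P-def lies above every 6-4 level in Control.

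For 5 of the 7 probes the mean of both channels was higher on every P-def array than on every Control array, a pattern shown by 7.71% of all probes without flagged spots. The same 5 were apart in 6-4 alone, where 8.51% of all probes were, and 4 of them in Nipponbare alone, where 7.51% were; the exception was AK062362. In these 5 the order of the 4 group means was the same: Nipponbare in P-def, 6-4 in P-def, Nipponbare in Control and 6-4 in Control, from high to low. For AK062362 the means were 13.74 ± 1.07 in 6-4 and 14.16 ± 0.76 in Nipponbare in P-def, and 11.15 ± 0.58 in 6-4 and 12.54 ± 1.07 in Nipponbare in Control (SD, n = 3 each). Neighbours in that order were not all apart: the lines overlapped in P-def for all 5 probes, and in Control for AK101380 and AK109109. The lowest 6-4 level in P-def was also below the highest Nipponbare level in Control for AK063990 and AK062362.

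The rise was next measured within each line, on the single channels and first without the replicate block. In 6-4, 3 probes rose, AK101170 by 1.57 (SE 0.20, limma adjusted p = 0.00191), AK101380 by 1.59 (SE 0.32, adjusted p = 0.0341) and AK109109 by 1.85 (SE 0.27, adjusted p = 0.00453), where 1.08% of all probes rose. The 6-4 differences of AK062362, 2.63 (SE 0.61, adjusted p = 0.0638), and AK063990, 1.28 (SE 0.29, adjusted p = 0.0595), missed the threshold. In Nipponbare only AK109109 rose, by 1.85 (SE 0.27, limma adjusted p = 0.0074), where 0.583% of all probes rose. The Nipponbare differences of the other 4 of these probes were 0.92 for AK101170 (adjusted p = 0.0645), 1.15 for AK101380 (adjusted p = 0.136), 0.92 for AK063990 (adjusted p = 0.179) and 1.58 for AK062362 (adjusted p = 0.257).

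With the replicate block 5 probes rose in each line, in 6-4 with adjusted p = 0.000653 for AK062362 and 0.0039 for AK063990 among them. The Nipponbare values with the block were adjusted p = 0.00676 for AK101170, 0.0164 for AK101380, 0.00975 for AK062362 and 0.0185 for AK063990. In that fit 14.6% of all probes changed in either direction in 6-4 and 12.1% in Nipponbare. That more probes passed in 6-4 than in Nipponbare without the block is not a difference between the lines; the test of that difference is the change in line ratio between conditions, given below.

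The calls in P deficiency depended on single arrays. Leaving out Control replicate 2 or P-def replicate 2 left 1 of 4 rises in the mean of both lines and 1 of 3 in 6-4. Of all probes, 0.458% and 0.697% then changed in the mean of both lines, against 1.52% with all arrays. In 6-4 these shares were 0.369% and 0.533%, against 1.36%. The Nipponbare rise of AK109109 was lost without either of these arrays or without replicate 1 of either condition. In these 4 fits 0.0747% to 0.184% of all probes changed in Nipponbare, against 0.828% with all arrays. AK101380 rose in the mean of both lines with any 1 array left out, with a difference of 1.28 to 1.52 whichever array was missing, and AK063990 did not pass with any array left out. On the processed signals of the Feature Extraction software, scaled by array medians, none of the 4 rises passed (limma adjusted p 0.104 to 0.225). Of all probes, 0.224% changed there.

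**Figure D2:**
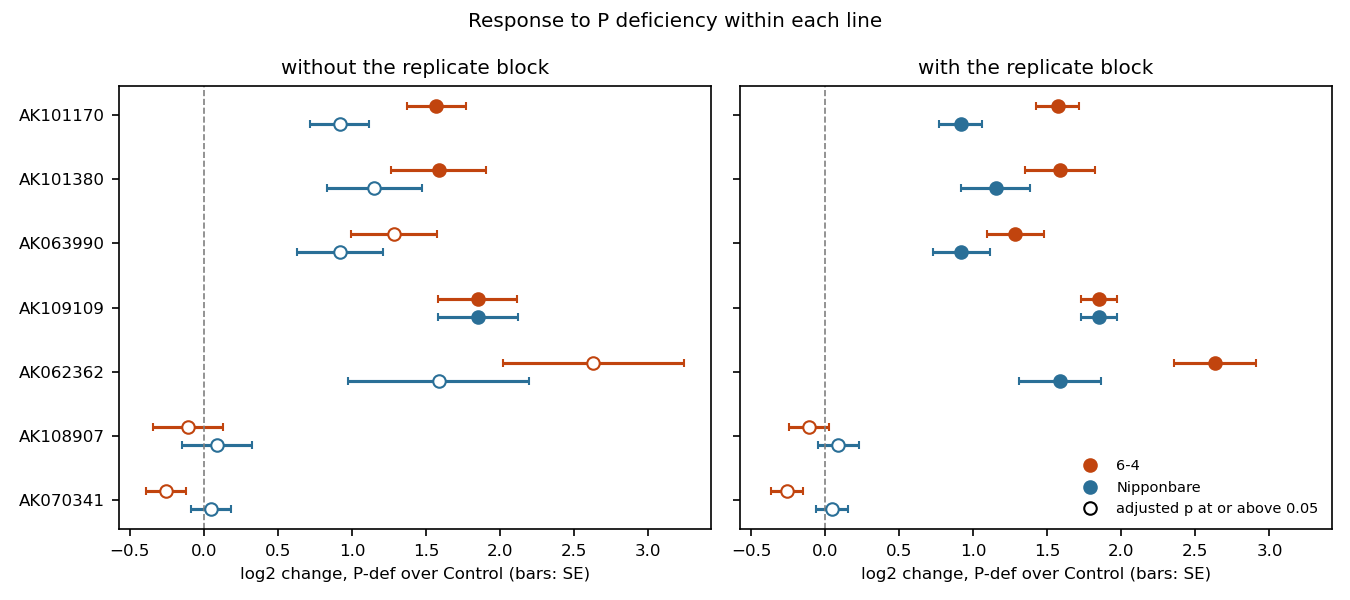
Log2 change of P-def over Control (x axis) for each of the 7 probes in 6-4 (upper point of each pair) and Nipponbare (lower point), with SE bars, fitted without the replicate block on the left and with it on the right. Filled points had an adjusted p under 0.05: 3 in 6-4 and 1 in Nipponbare without the block, 5 in each line with it.

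Between the lines, 6-4 had less signal than Nipponbare for 6 of the 7 probes as a mean of both conditions, and 2 of these passed the test. AK108907, a transporter 2 probe, was 0.70 lower on the log2 scale in 6-4, and AK101170, a Pht1-2 probe, 0.45 lower. The second transporter 2 probe, AK070341, had a line difference near 0. Among all probes tested, 0.663% were lower in 6-4 in this comparison, and the median log2 line difference was -0.51 over the 7 probes against 0.00 over all.

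The log2 ratios of 6-4 over Nipponbare for AK108907 were -0.50, -1.33 and -0.12 on P-def arrays and -0.82, -0.27 and -1.13 on Control arrays. All 6 were below 0, and the 3 arrays with 6-4 in Cy3 had the 3 lowest. The fit, which takes out a dye term of 0.43, gave a mean of -0.70 (SE 0.08, limma adjusted p = 0.0189), and without that term the adjusted p was 0.273.

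For AK101170 the ratios were -0.13, -0.18 and -0.02 in P-def and -0.59, -0.77 and -0.98 in Control. The measured ratios were all below 0, but those of P-def replicates 2 and 3 come from saturated spots: the ratio is an upper bound on replicate 2, where Nipponbare was saturated, and a lower bound on replicate 3, where 6-4 was. P-def replicate 1 was nearer to 0 than all 3 Control arrays. The lower bound of P-def replicate 3 also lay above all 3, while P-def replicate 2, an upper bound, cannot be ranked against them. The mean was -0.45 (SE 0.06, limma adjusted p = 0.038).

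AK062362 had ratios of -1.02, -0.16 and -0.06 in P-def and -0.78, -1.40 and -1.99 in Control, the widest range of the 7 probes. AK063990 had -0.19, -0.57 and -0.07 in P-def and -0.57, -0.47 and -1.33 in Control. Both were below 0 on all 6 arrays, with means of -0.90 (SE 0.18, limma adjusted p = 0.0874) and -0.53 (SE 0.10, adjusted p = 0.0733). The P-def replicate 3 ratio of AK062362 is a lower bound, since 6-4 was saturated there.

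AK109109 had ratios of -0.39, -0.16 and -0.33 in P-def and -0.34, -0.13 and -0.43 in Control, a small difference of like size in both conditions (mean -0.30, SE 0.06, limma adjusted p = 0.0925). The Control ratios of AK109109 rest on dim Cy3 signal, whose part in them was not tested. AK101380 had -0.32, -0.42 and 0.01 in P-def and -0.41, -0.54 and -1.39 in Control (mean -0.51, SE 0.12, adjusted p = 0.126). AK070341 ranged from -0.25 to 0.28 over the 6 arrays, with a mean of 0.01 and a 95% confidence interval of -0.10 to 0.12 (adjusted p = 0.946). In all, 5 probes had a measured ratio below 0 on every array, AK101170 and AK062362 with a lower bound on P-def replicate 3, as 2.87% of all probes without flagged spots did; the exceptions were AK101380, by 1 array, and AK070341.

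**Figure D3:**
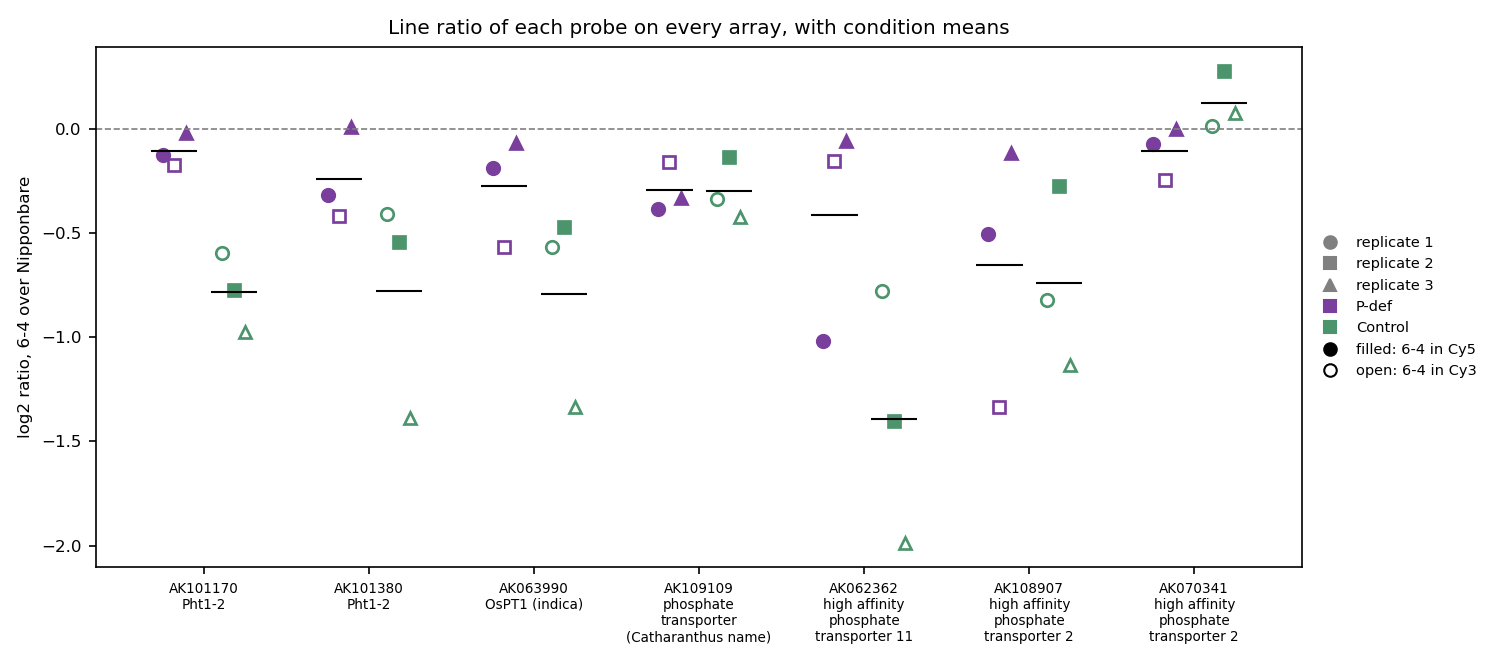
Log2 ratio of 6-4 over Nipponbare (y axis) for each of the 7 probes on the 3 P-def arrays (left of each pair) and the 3 Control arrays (right); symbol shape gives the replicate, filling the dye that held 6-4, and the line the mean of 3. The measured ratios of AK101170 are between -0.18 and -0.02 in P-def, where 2 of 3 are bounds from saturated spots, and between -0.98 and -0.59 in Control.

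Taken by condition, 1 probe was lower in 6-4 under P-def and 5 under Control. Under P-def this was AK108907, at -0.80 (SE 0.11, limma adjusted p = 0.0211), where 4.62% of all probes were lower in 6-4. Under Control AK062362 was lower by 2.68-fold (log2 -1.42, SE 0.26, limma adjusted p = 0.0257), AK101170 by 1.71-fold (log2 -0.77, SE 0.09, adjusted p = 0.0152), AK101380 by 1.66-fold (log2 -0.73, SE 0.18, adjusted p = 0.0464), AK063990 by 1.64-fold (log2 -0.71, SE 0.14, adjusted p = 0.0287) and AK108907 by 1.51-fold (log2 -0.60, SE 0.11, adjusted p = 0.0259). The background there was 6.19%. AK109109 had -0.29 under Control (adjusted p = 0.0763) and AK070341 0.16 (adjusted p = 0.158).

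The change in line ratio, P-def minus Control, passed for 1 probe: AK101170, whose line difference was smaller under P-def by 0.65 (95% confidence interval 0.33 to 0.97, limma adjusted p = 0.0197). It is equally the difference between the P responses of 6-4 and Nipponbare. In this comparison 9.39% of all probes were higher, so that 1 of 7 is a share near the background. The other values were 1.05 for AK062362 (adjusted p = 0.108), 0.43 for AK101380 (adjusted p = 0.299), 0.36 for AK063990 (adjusted p = 0.269), 0.00 for AK109109 (95% confidence interval -0.31 to 0.31), -0.20 for AK108907 (adjusted p = 0.45) and -0.30 for AK070341 (adjusted p = 0.0713). For AK101170 this value includes the 2 bounded P-def ratios.

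Line calls also rested on single arrays and on the dye term. For the mean of both conditions the number lower in 6-4 was 4 without Control replicate 1 or Control replicate 3, and 0 without any one of the other 4 arrays. Of all probes, 0.779% and 4.09% were called in either direction in the first 2 fits, and 0.102% to 0.171% in the other 4. Under P-def it was 2 without Control replicate 1, 3 without Control replicate 3 and 0 without any one P-def array. Of all probes, 12.4% and 21.8% were called in the first 2 of these fits, and 0.029% to 0.044% without a P-def array. Under Control it was 0 without Control replicate 2 (0.0098% of all probes called) or P-def replicate 3 (0.122%) and 1 without P-def replicate 1 (1.49%). The change in line ratio had 3 calls without Control replicate 1, where 18.9% of all probes were called. It had 0 without Control replicate 2, where 0% were called, or without any one P-def array, where 4.82% to 7.91% were. Without a dye term no probe passed in any of these 4 comparisons, where 6-4 was in Cy5 on 2 of 3 P-def arrays and 1 of 3 Control arrays, and with the authors' deposited log ratios 1 of the 5 Control calls remained. Whether a lower 6-4 signal came from less RNA or from a Kasalath sequence that binds the probe less well was not tested.

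Probes of one description were then set against each other. The Pht1-2 probes AK101170 and AK101380 moved together: over the 12 channels their levels had r = 0.978, with the dye effect taken out (description only; channels share arrays). Their measured line ratios differed by 0.07 (AK101170 minus AK101380, SD over the 6 arrays 0.26, exact sign-flip test, two-sided p = 0.594), with 3 of 6 arrays on either side of 0. On P-def replicates 2 and 3 the AK101170 ratio is a bound from a saturated spot. The difference on those arrays is then a bound too, and its side of 0 is not known. The sign-flip test took the measured values, so it cannot settle whether the line ratios differ. Their P responses differed by -0.13 (exact permutation test, two-sided p = 0.5), where the response of AK101170 includes saturated spots and may be larger than measured. These tests do not show that the probes act alike; on Control replicate 3 the ratios were -0.98 and -1.39.

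The probes for transporter 2, AK108907 and AK070341, ran less in parallel, with r = 0.26 over the 12 channels. The line ratio of AK108907 was below that of AK070341 on 6 of 6 arrays, by 0.70 on average (SD 0.42, exact sign-flip test, two-sided p = 0.0312, the smallest that 6 arrays allow, and 0.0625 after adjustment over the 2 pairs). Their P responses, both near 0, differed by 0.10 (exact permutation test, two-sided p = 0.5, where 3 arrays against 3 cannot go below 0.1). The part of the weak Cy3 signal of AK070341 in these differences was not tested.

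A further probe described as Pht1-2, AK069054, was not among the 7. Its ratios were -0.18, -0.16 and -0.04 in P-def and 0.07, 0.18 and -0.11 in Control, around 0 in both conditions. Its mean of both channels was 9.04, 9.07 and 8.17 in P-def and 9.29, 9.53 and 8.31 in Control, a difference of -0.28 (SE 0.34, limma adjusted p = 0.891), where AK101170 and AK101380 rose by 1.24 and 1.37. One more probe with this description, AK106694, was well above background in 6 of 12 channels and was not tested.

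**Figure D4:**
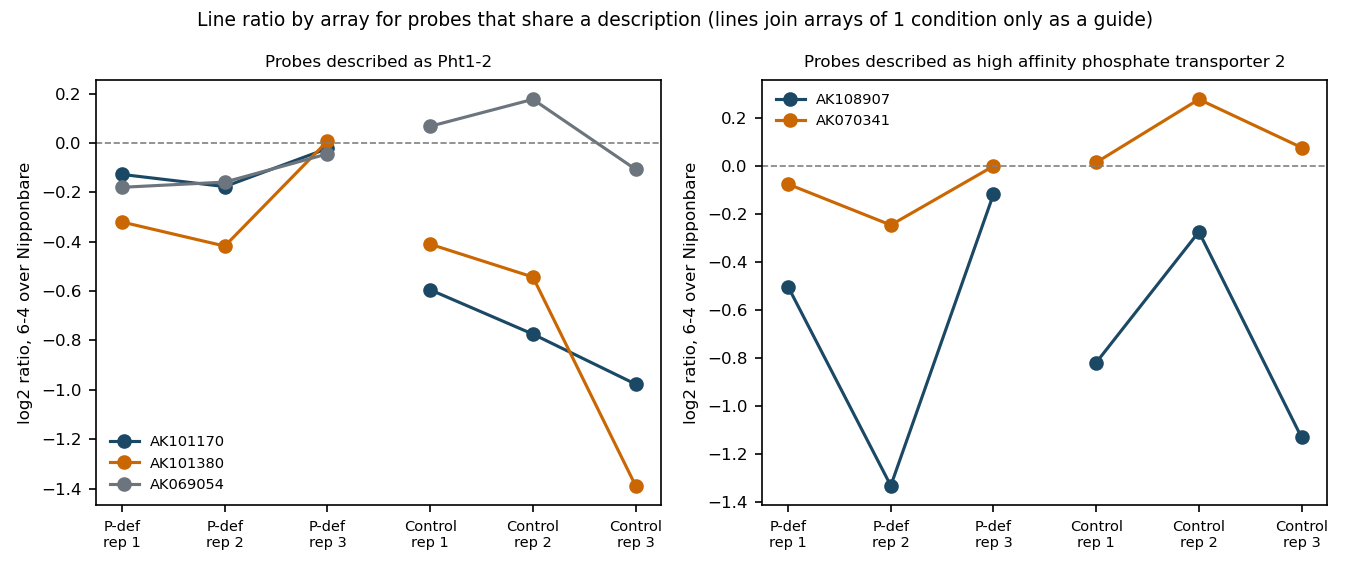
Log2 ratio of 6-4 over Nipponbare (y axis) on each of the 6 arrays (x axis) for the probes described as Pht1-2 (left) and as high affinity phosphate transporter 2 (right). AK108907 lies below AK070341 on 6 of 6 arrays, and AK101170 and AK101380 cross.

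Levels of the other members ran in parallel to different degrees. AK101170 had r = 0.94 with AK063990 and 0.937 with AK109109 over the 12 channels, and 0.738 with AK062362. AK070341 had negative values with the 5 probes whose P-def and Control arrays were apart, between -0.56 and -0.31. Among named probes outside the 7, the highest values were 0.987 for AK101170 with AK106533, described as a metallophosphatase of Lupinus luteus, and 0.984 with AK073876, described as GRAB2 of wheat. AK101380 was closest to AK109627 (a taxane hydroxylase, 0.989) and AK067167 (a methionine sulfoxide reductase, 0.984).

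AK109109 was closest to AK073281, a second metallophosphatase probe (0.981), and AK073222, described as the purple acid phosphatase PAP22 (0.98), an enzyme class that frees phosphate from organic esters. The closest to AK062362 were AK108987 (a germin-like protein, 0.988) and AK069316 (an enolase, 0.988), and to AK063990 again AK073876 (0.96) and AK064040 (the alternative oxidase AOX1a, 0.959). AK108907 had lower best values, 0.895 with AK105964 (an allene oxide synthase, of jasmonate synthesis) and 0.885 with AK102672 (a resistance-like protein), and AK070341 0.918 with AK111203 (a bromodomain protein) and 0.913 with AK106242 (a DNAJ homologue). These are the highest of 6257 named probes and are given without a test.

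Of 18 other probes for phosphate transport on the array, among them plastid and mitochondrial carriers and a PHO1 probe, 15 were tested in the mean response to P deficiency. By limma 0 rose or fell (1 at an unadjusted p under 0.05). The background of 1.52% of all probes called in either direction would also give this count. AK107027, described as the putative transporter HAPT, differed by 0.09 (SE 0.12), and AK100323, described as PHO1, which loads phosphate into the xylem in Arabidopsis, by 0.32 (SE 0.16, adjusted p = 0.533). The 3 further probes with the smallest p were AK071036 at 0.39 and AK059591 at 0.32, both phosphoenolpyruvate translocators of plastids, and AK099799, a triose phosphate translocator, at 0.29. Between the lines 0 of the 14 tested passed (2 at an unadjusted p under 0.05), with AK069397, a mitochondrial carrier, at 0.20 and AK100323 at 0.11.

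Of 5 probes for phosphate sensing, 1 rose, where 1.06% of all probes did: AK063544, an ids4-like (SPX domain) protein, by 1.20 (SE 0.17, limma adjusted p = 0.0162). AK107245, with the same description, differed by 0.46 (adjusted p = 0.448) and was at -0.45 in 6-4 against Nipponbare (adjusted p = 0.0611). The other 2 named here were AK070419, a phosphate-induced protein, at -0.36 and AK067674, an ids-4 probe, at -0.24. AK070419 had a line difference of 0.29 (adjusted p = 0.0981). In the mean line effect and under P-def 0 of the 5 passed. Under Control 1 was lower in 6-4, where 6.19% of all probes were. The change in line ratio was higher for 1, where 9.39% of all probes were.

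Among 53 tested probes for other phosphate-starvation genes, 7 rose in P deficiency and 0 fell, where 1.06% of all probes rose, with a median difference of 0.08. AK064148, for monogalactosyldiacylglycerol synthase, which makes a phosphorus-free membrane lipid, rose by 2.52 (SE 0.20, limma adjusted p = 0.00106). The purple acid phosphatase probes AK110804, AK071643 and AK070684 rose by 2.44, 1.79 and 1.10. As a mean of both conditions 3 of the 53 were lower in 6-4 and 0 higher, where 0.663% of all probes were lower: AK110804 by 0.74, AK073222 by 0.51 and AK064148 by 0.46 on the log2 scale. All 3 are among the 7 that rose in P deficiency. By condition the list went both ways: 6 were lower and 0 higher in 6-4 under P-def, 7 lower and 6 higher under Control, and the change in line ratio was higher for 7 and lower for 5. Of all 20528 probes, 949 were lower and 886 higher under P-def, and 1270 lower and 1383 higher under Control. The change in line ratio was higher for 1927 and lower for 2107 of them.

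Root marker probes were present in signal: 13 of 14 were tested and all 13 were well above background in all 12 channels. This list was matched by the words RCc2, RCc3, root-specific, OsIRT1 and nicotianamine synthase. Whether its changes came from the make-up of the tissue or from regulation of these genes was not tested. In P deficiency 3 of the 13 fell, where 94 of all 20531 probes fell. The median level of the list was 10.94 to 11.30 over the P-def channels and 11.02 to 11.79 over the Control channels. The median P response of the root list was -0.01 in 6-4, with 1 probe fallen, and -0.62 in Nipponbare, with 2 fallen. Of all 20054 probes in that fit, 56 fell in 6-4 and 49 in Nipponbare. Between the lines 1 root probe was higher in 6-4 in the mean of both conditions, where 54 of all 20528 probes were. Under P-def 2 root probes were higher and 1 lower, and under Control 0 passed. The change in line ratio was higher for 2 root probes and lower for 1. Leaf and shoot markers, with 24 of 30 tested probes above background in every channel, had median levels of 7.58 to 7.73 in P-def and 7.41 to 7.90 in Control, and 0 of them passed in limma's mean response to P deficiency or mean line effect (3 in each at an unadjusted p under 0.05). By condition 2 leaf and shoot probes were lower in 6-4 under P-def, and 4 were lower and 3 higher under Control. The change in line ratio was higher for 4 and lower for 5. Counts over all probes by condition are those given with the phosphate-starvation list, for root as for leaf and shoot markers. The part of shifts in these markers in the transporter values was not tested. Between 89.8% and 95.5% of rice probes were well above background in Cy3 and 95% to 99.5% in Cy5, while negative control spots in Cy3 were at 4.80 to 5.06 times the local background on replicate 2 of both conditions, 2.86 times on Control replicate 1 and 1.19 to 1.45 times on the others.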

How the data were processed

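Root RNA (1.6 g of tissue) was labelled by linear amplification and hybridised to 6 two-colour Agilent arrays, per the labels' protocols. Spot intensity values and log10 ratios were deposited as made by Agilent Feature Extraction 7.1 or 8.1, per the file headers, which give 8.1 for replicate 3 of both conditions; the submitters' processing notes give 8.1 for P-def replicate 2 also. The authors' deposited table holds the same log10 ratios as 6-4 over Nipponbare (22575 of 22575 spots within 0.005) and served as an alternative.

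From the mean and background intensity, limma 3.58.1 in R 4.3.3 corrected background (normexp, offset 50) and normalized by loess within arrays and Aquantile between them; 569 flagged spots were left out. Probes were kept (20531) if all 3 arrays of any group showed them well above background. Line effects were fitted on log2 ratios with a dye term (20528 probes), the mean P response on the mean log2 intensity, and the response per line on 12 single channels (lmscFit, intraspot correlation 0.799, 477 probes with flagged spots left out). Precision is limited by having 3 arrays a condition; median probe signal over background was between 3.25 and 6.94 for Cy3, between 7.32 and 9.83 for Cy5. The fits were also run on simulated data with independent noise for each probe and array. That simulation held no dye effect, shared replicate deviation or saturation, so it cannot show how the fits do with these.

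Same-numbered arrays of the conditions deviated together in level (r = 0.402, 0.318 and 0.662). P-def replicate 1 also had r = 0.278 with Control replicate 2, and P-def replicate 2 had 0.106 with Control replicate 1. Replicate 3 of either condition had -0.53 to -0.30 with other numbers, and there number and software version cannot be told apart. The pairing by number is thus only a hint from the data. Calls of P responses are from the fit without the replicate block, and blocked values are given beside them. In line ratio same-numbered arrays, of opposite dye orders, had r = -0.604, -0.751 and -0.371, so blocked line effects are given only with the alternatives. Members and lists were chosen with earlier results of these data known. The text names all members, from each of 3 phosphate lists up to 4 probes with the smallest p in the mean P response and up to 2 in the mean line effect, and for each member the 2 probes of closest level pattern. No sequence or position was used here. Figures were drawn with matplotlib 3.10.9.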

Additional observations from a re-analysis of the deposited data

Results flagged for a closer look

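For AK101170, a Pht1-2 probe, the effect of the line differed between the conditions by a test of the difference itself: the log2 ratio of 6-4 over Nipponbare was 0.65 higher in P-def than in Control (SE 0.13, limma adjusted p = 0.0197), with -0.12 in P-def and -0.77 in Control. The ratio of P-def replicate 1, -0.13, was nearer to 0 than that of any Control array. Those of P-def replicates 2 and 3 come from saturated spots and are bounds. The lower bound of replicate 3 lay above every Control ratio, and replicate 2 cannot be ranked. Of all probes, 9.39% were higher in this comparison. Over the alternatives the difference was 0.50 to 0.77 and the adjusted p 0.0103 to 0.563. Without Control replicate 2 the adjusted p was 0.184, and without P-def replicate 1, 2 or 3 it was 0.0622, 0.122 or 0.0756. Without the 2 saturated arrays the difference was 0.65 with an adjusted p of 0.444. The part of saturation in this value was not tested further.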

How the results depend on the processing

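The 49 effects of the 7 probes were recomputed under the alternatives that apply to each, 19 settings in all, and of these values 612 kept direction and side of the threshold, 117 lost a call, 30 gained one and 25 changed sign. Counts of probes called are given here in the order mean line effect (2), P-def line effect (1), Control line effect (5) and change in line ratio (1). They were 0, 0, 1 and 0 with the deposited log ratios, 0 in all 4 without a dye term, 1, 0, 0 and 0 without background correction and 1, 0, 1 and 0 with median centring. The mean line effect had 1 with an offset of 16 or with the software version as batch, and 4 with the replicate block (AK062362 and AK063990 gained, adjusted p = 0.0415 and 0.0391), though same-numbered arrays did not deviate together in line ratio; within version 7.1 the P-def line effect and the change in line ratio had 2 each. Without the 2 arrays with saturated spots, an alternative chosen after seeing the data, they were 0, 0, 3 and 0, and with single arrays left out 0 to 4, 0 to 3, 0 to 5 and 0 to 3. Counts for the P response in the mean of both lines (4), 6-4 (3) and Nipponbare (1) were 0, 1 and 0 with processed signals, 5, 5 and 5 with the replicate block, 5, 5 and 4 with version as batch, 4, 0 and 0 within version 7.1, 1, 0 and 0 without the 2 arrays, and 1 to 4, 1 to 4 and 0 to 1 with single arrays left out. The paired fit (replicate block) changed no other call of the 7 probes. Equal counts need not be the same probes. Within version 7.1 the mean P response lost AK063990 (limma adjusted p = 0.148) and gained AK062362 (0.00333). The mean line effect there lost AK101170 (limma adjusted p = 0.0592) and gained AK062362 (0.0219). The Control line effect had 4 with an offset of 16 or with the software version as batch. Counts for the 3 P responses, in the same order, were 3, 2 and 1 with an offset of 16 or with median scaling of levels. With quantile normalization of all channels they were 4, 2 and 1. The cause of these changes was not tested. Fits on fewer arrays have fewer degrees of freedom by construction. Shares of all probes called in either direction moved too. In the same order of line comparisons they were 0.0926%, 0.901%, 3.5% and 9.67% with the deposited log ratios. Without background correction they were 0.127%, 0.0049%, 0.0097% and 0%, and with median centring 0.312%, 0.195%, 4.03% and 10.4%. For the 3 P responses they were 0.224%, 0.319% and 0.0549% with processed signals, and 4.31%, 14.6% and 12.1% with the replicate block.

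Signs changed only for effects that were not called. For AK109109 the change in line ratio was 0.055 with deposited ratios, 0.035 with an offset of 16, 0.011 with median centring, 0.0067 without a dye term and -0.225 to 0.222 with single arrays left out. For AK108907 it was 0.091 without a dye term; the P response of that probe was 0.0061 without background correction, 0.0084 within version 7.1, 0.040 with median scaling, 0.034 with processed signals, 0.28 (0.16 in 6-4) without the 2 arrays, and with single arrays left out -0.158 to 0.142 in the mean, -0.270 to 0.0062 in 6-4 and -0.090 to 0.294 in Nipponbare. For AK070341 the mean line effect was -0.0074 within version 7.1, -0.015 without the 2 arrays and -0.0018 to 0.020 with single arrays left out; its P response was 0.049 without the 2 arrays, and in Nipponbare -0.042 to 0.102 with single arrays left out. Between probes of one description, the line ratios of AK101170 and AK101380 differed by -0.0025 to 0.126, and the P responses of AK108907 and AK070341 by -0.039 to 0.220, with single arrays left out. The line ratios of AK101170 in this range include bounds from saturated spots.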
